A study of Danio rerio with 10 samples.

Results

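Transcripts of 5 enzymes that handle quinones, reactive oxygen and monoamines were followed in adult male zebrafish exposed to estrogen, with or without an anti-estrogen. The 5 genes, nqo1, mao, txnrd3, cat and sod1, were chosen by name, as all probes that the annotation of the array assigns to these symbols. They are 5 of the 5356 genes on the array that have a probe with 1 gene symbol, and they are measured by 6 probes, since nqo1 has 2. All 6 probes have a value on each of the 10 arrays, so none was lost to the limit on missing values.

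The fish were kept for 96 hours in water with ethanol alone (0.01%, control, 4 fish), with 17β-estradiol (E2, 3 fish), or with E2 and the anti-estrogen ICI 182,780 at 1 µM (E2+ICI, 3 fish), ethanol being the solvent of both compounds. The treatment protocol gives E2 as 10 nM, whereas the sample titles give 10 mM. RNA of 1 whole fish, labelled with Cy3, was hybridized on each array against the same Cy5-labelled reference, an equal mix of male and female RNA from pooled livers, and dyes were not swapped. Fish given ICI without E2 were not analysed here, so an action of ICI by itself and its action on the response to E2 cannot be told apart.

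Each value is a log2 ratio of fish to reference, normalized within its array by the Lowess method, and a difference of 1 means 2-fold. Array medians ran from -0.675 (E2 replicate 1) to 0.109 (control replicate 3) before Lowess. After Lowess they ran from -0.0172 (control replicate 4) to 0.0239 (E2+ICI replicate 2). A value of 0 thus stands for the typical ratio on its array, and the level of the reference is meant below on this normalized scale. The file does not state the direction of the ratio. Fish over reference is the likely one, since the probes that the study lists as up-regulated by E2 have the higher values in E2 fish, and vtg3, a yolk precursor known to rise with estrogen, was 7.66 higher in E2 than in control fish. As whole bodies were ground, fewer cells of a type and less RNA in each cell cannot be told apart in any value below.

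The enzymes belong to connected parts of redox metabolism. Superoxide dismutase 1, made from sod1, turns superoxide into hydrogen peroxide, and catalase, made from cat, splits hydrogen peroxide into water and oxygen. Thioredoxin reductase, made from txnrd3, spends NADPH to keep thioredoxin reduced, and thioredoxin in turn repairs oxidized protein thiols. The quinone reductase encoded by nqo1 reduces quinones, including those formed from estrogen metabolites, straight to hydroquinones and so avoids the reactive semiquinone. In mammals nqo1 is a standard target gene of the transcription factor Nrf2. Monoamine oxidase, the product of mao, sits in the outer membrane of mitochondria, breaks down serotonin, dopamine and related amines, and releases hydrogen peroxide as it does so.

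The arrays of the groups differed in ways that touch every probe. The log2 ratios of a control array had an SD of 0.796 to 1.07, those of an E2 array of 0.461 to 0.514, and those of an E2+ICI array of 0.373 to 0.561. Missing values ranged from 196 to 912 per array, the most being in E2+ICI replicate 2. Of the lists of cell type markers, all 7 oocyte probes were higher in E2 than in control fish, and the mean of that list per fish ran from -5.49 to -4.34 for the controls, from 0.216 to 0.614 under E2, and from -1.41 to -0.145 under E2+ICI. The testis list was measured by ddx4 (2 probes), a germ cell gene, and cyp17a1, a gene of steroid synthesis, both of which the ovary also expresses, so that they do not mark the testis by themselves. These 3 probes were also higher in E2, with a mean of -1.81 to -1.62 for the controls, 0.284 to 0.335 under E2 and -1.09 to -0.18 under E2+ICI. Of 6 liver probes 4 were lower in E2, and the list mean was -0.308 to 0.447 for the controls, -1.56 to -1.40 under E2 and -0.607 to -0.359 under E2+ICI. Of 8 muscle probes 1 was higher and of 4 gut probes 1 was lower in E2. Of 5 red blood cell probes 0 passed by limma or SAM, with 1 lower at an unadjusted p under 0.05. By limma 7305 of the 16208 probes tested were under that level for E2 against control. Among all probes tested, 19.2% were higher and 16.5% lower in E2 at an adjusted p under 0.05 by limma. The muscle and gut counts were near these shares. The oocyte, testis and liver lists moved with the groups, as did the 5 genes, and their part in the results below was not tested.

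Against control, E2 fish had less nqo1 and mao transcript and more txnrd3, cat and sod1 transcript. All 6 probes passed an adjusted p of 0.05 in limma, 3 of them higher and 3 lower, whereas 35.6% of the 16208 probes tested passed in this comparison (19.2% higher and 16.5% lower). The groups did not overlap for 5 of the 6 probes, cat being the exception, and for 43.1% of all probes tested. The 5 genes were picked when results of these arrays were already known, so this count describes them and is no test of them as a set. The study also lists txnrd3 among its up-regulated and mao and both nqo1 probes among its down-regulated genes, and those lists were drawn from these same arrays.

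**Figure D1:**
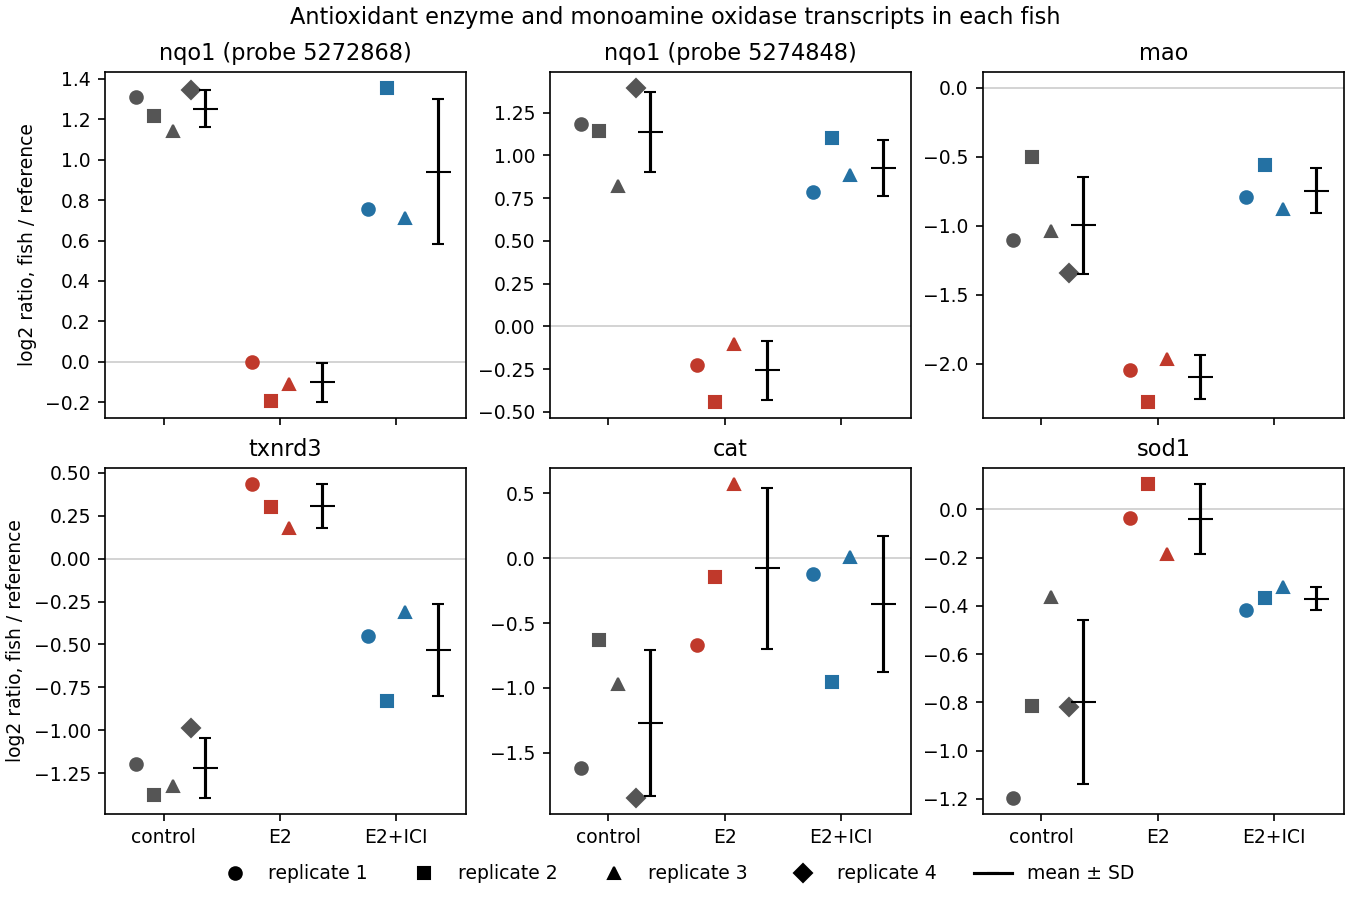
Log2 ratio of fish to reference (vertical axes, each with its own range) for the 6 probes in the 4 control, 3 E2 and 3 E2+ICI fish, 1 symbol per fish, with the group mean and SD to the right of the points. The E2 fish lie below all other fish for both nqo1 probes and for mao, above all other fish for txnrd3 and sod1, while for cat they overlap with the other fish, E2 replicate 3 being the highest of all.

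The first nqo1 probe (5272868) stood well above the reference in control fish, with 1.31, 1.21, 1.14 and 1.35 in control replicates 1 to 4. The E2 fish read 0.00088, -0.19 and -0.11, and the E2+ICI fish 0.76, 1.36 and 0.71. The E2 fish were thus at the level of the reference and apart from all other fish, whereas E2+ICI replicate 2 was as high as the controls and the other E2+ICI fish were below all of them. Controls averaged 1.25 ± 0.0924 (SD, n = 4), E2 fish -0.10 ± 0.0978 (n = 3) and E2+ICI fish 0.94 ± 0.36 (n = 3). In E2 the transcript fell by 1.36 on the log2 scale (SE 0.172, 2.56-fold lower, adjusted p = 0.000129 by limma). E2+ICI fish were 1.04 above E2 fish (SE 0.184, 2.06-fold higher, adjusted p = 0.0134), and against control they differed by -0.31 (SE 0.172, 95% interval -0.691 to 0.0649, adjusted p = 0.283).

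The second nqo1 probe (5274848), which has a GenBank accession of its own, gave nearly the same picture. The controls read 1.19, 1.15, 0.82 and 1.39, the E2 fish -0.23, -0.44 and -0.10, and the E2+ICI fish 0.79, 1.1 and 0.89. Again every E2 fish lay below every other fish, and here the E2+ICI fish overlapped with the controls. Controls averaged 1.14 ± 0.24, E2 fish -0.26 ± 0.17 and E2+ICI fish 0.93 ± 0.16. The transcript fell by 1.39 in E2 (SE 0.168, 2.63-fold lower, adjusted p = 9.42e-05), and it was 1.18 higher in E2+ICI than in E2 fish (SE 0.18, 2.27-fold, adjusted p = 0.00661). The difference between E2+ICI and control was -0.21 (SE 0.168, 95% interval -0.582 to 0.158, adjusted p = 0.47). Since both probes read the same RNA samples, they are repeat measurements of 1 gene and not independent evidence.

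For both nqo1 probes the order of the groups was control, E2+ICI and E2, and control and E2+ICI did not differ beyond their spread. That order turned when the arrays were quantile normalized, which put E2+ICI above control by 0.16 and 0.25, or scaled to equal spread, which put it above by 0.21 and 0.32. For the first probe the difference of E2+ICI from control was -0.52 without E2+ICI replicate 2 (adjusted p = 0.0427) and -0.43 with array weights (adjusted p = 0.0284). These weights are lower for arrays that deviate more from the means of their group. Its rise from E2 to E2+ICI had adjusted p = 0.0803 on the values before Lowess, 0.054 without E2 replicate 2 and 0.0592 without E2 replicate 3, while that of the second probe passed in each alternative run.

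Monoamine oxidase was the other transcript that fell. The mao values of the controls were -1.1, -0.50, -1.03 and -1.34, those of the E2 fish -2.04, -2.28 and -1.97, and those of the E2+ICI fish -0.79, -0.56 and -0.88. All values were below the liver reference, those of the E2 fish lay below those of all other fish, and the E2+ICI fish lay within the range of the controls, of which replicate 2 was the highest. The control mean was -0.995 ± 0.35, the E2 mean -2.10 ± 0.16 and the E2+ICI mean -0.74 ± 0.165. In E2 mao fell by 1.1 on the log2 scale (SE 0.197, 2.15-fold lower, adjusted p = 0.0013).

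With ICI added, mao was 1.35 higher than with E2 alone (SE 0.21, 2.55-fold, adjusted p = 0.00723), and it differed from control by 0.25 (SE 0.197, 95% interval -0.182 to 0.683, adjusted p = 0.464). The order of the means was E2+ICI, control and E2, of which E2+ICI and control did not differ beyond their spread. The size of the fall in E2 depended on how the arrays were scaled, the difference being -2.39 with quantile normalization and -1.92 with equal spread. The small difference between E2+ICI and control turned to -0.54 and -0.31 under these settings, to -0.12 on values before Lowess and to -0.059 with array weights.

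Thioredoxin reductase showed the largest estimated rise among the 5 genes. For txnrd3 the controls read -1.2, -1.38, -1.32 and -0.99, the E2 fish 0.44, 0.30 and 0.18, and the E2+ICI fish -0.45, -0.83 and -0.31. The 3 groups did not overlap, with the E2 fish above the reference, the controls well below it and the E2+ICI fish in between. The control mean was -1.22 ± 0.17, the E2 mean 0.31 ± 0.13 and the E2+ICI mean -0.53 ± 0.27. The rise in E2 was 1.53 (SE 0.166, 2.88-fold, adjusted p = 4.73e-05).

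In E2+ICI fish txnrd3 was lower than in E2 fish, with a log2 difference of -0.84 (SE 0.178, 1.79-fold, adjusted p = 0.0252), and it remained 0.69 above control (SE 0.166, 1.61-fold, adjusted p = 0.0201). It is the 1 probe of the 6 that passed for E2+ICI against control, where 12% of all probes tested passed (8.92% higher and 3.04% lower), and the 1 probe whose groups did not overlap there, as was so for 25% of all probes. This call against control was lost with quantile normalization (0.17, adjusted p = 0.616), equal spread (0.25, 0.414), values before Lowess (0.30, 0.536), a fit of these groups alone (adjusted p = 0.0565) and 2-class SAM (q = 0.0639). It was also lost without control replicate 2 (adjusted p = 0.052), E2+ICI replicate 1 (0.0835) or E2+ICI replicate 3 (0.113). The difference between E2+ICI and E2 kept its direction throughout but did not pass on values before Lowess (adjusted p = 0.0847) or without any 1 of the E2 fish, E2+ICI replicate 1 or E2+ICI replicate 2 (0.0625 to 0.101).

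Catalase varied most among fish of the same group. The cat values of the controls were -1.61, -0.63, -0.97 and -1.85, those of the E2 fish -0.67, -0.14 and 0.57, and those of the E2+ICI fish -0.12, -0.96 and 0.0082. E2 replicate 1 was slightly lower than control replicate 2, so that these groups overlapped, and E2+ICI replicate 2 lay among the controls. The last E2+ICI value equals the value that 373 probes share on that array. Controls averaged -1.27 ± 0.56, E2 fish -0.08 ± 0.62 and E2+ICI fish -0.36 ± 0.52.

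The cat transcript was 1.19 higher in E2 than in control fish (SE 0.364, 2.28-fold, adjusted p = 0.0254). The call was lost with quantile normalization (0.78, adjusted p = 0.0858), equal spread (0.82, 0.0614) and values before Lowess (0.75, 0.0586), and without control replicate 1 (0.0612), E2 replicate 2 (0.0606) or E2 replicate 3 (0.86, 0.124). E2+ICI fish differed from control by 0.91 (SE 0.364, 95% interval 0.112 to 1.71, adjusted p = 0.136) and from E2 fish by -0.28 (SE 0.389, 95% interval -1.13 to 0.578, adjusted p = 0.713). The order was E2, E2+ICI and control. The step from E2 to E2+ICI was within the spread. That from E2+ICI to control had an unadjusted p of 0.029 by limma and did not pass after adjustment over all probes. An unadjusted p under 0.05 was found for 4245 of the 16208 probes tested for E2+ICI against control.

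Superoxide dismutase had the smallest difference of the 5 genes in E2. For sod1 the controls read -1.2, -0.82, -0.36 and -0.82, the E2 fish -0.036, 0.10 and -0.18, and the E2+ICI fish -0.42, -0.37 and -0.32. E2 fish were close to the reference and above all others, the E2+ICI fish lay close together, and control replicate 3 stood among the E2+ICI fish. Controls averaged -0.80 ± 0.34, E2 fish -0.0386 ± 0.145 and E2+ICI fish -0.37 ± 0.0465.

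Relative to control, sod1 was 0.76 higher in E2 fish (SE 0.185, 1.69-fold, adjusted p = 0.00809), a call that was lost on values before Lowess (0.40, adjusted p = 0.235). E2+ICI fish differed from control by 0.43 (SE 0.185, 95% interval 0.0219 to 0.836, adjusted p = 0.168) and from E2 fish by -0.33 (SE 0.198, 95% interval -0.766 to 0.104, adjusted p = 0.335), although the E2 and E2+ICI fish did not overlap. The order was again E2, E2+ICI and control. By limma the unadjusted p was 0.122 for the step from E2 to E2+ICI and 0.0406 for that from E2+ICI to control. Neither step passed after adjustment over all probes. For E2+ICI against control 4245 of the 16208 probes tested had an unadjusted p under 0.05. The difference between E2+ICI and control ran from 0.0117 to 0.43 over the processing alternatives.

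Over the 5 genes, addition of ICI to E2 thus moved nqo1, mao and txnrd3 back towards control, while cat and sod1 did not pass. In this comparison 4 of the 6 probes passed (3 higher and 1 lower), beside 5.42% of all probes tested (2.88% higher and 2.54% lower), and for 5 of the 6 the groups did not overlap, beside 42.5%. Among all probes 5.07% passed both for E2 against control and, with the opposite sign, for E2+ICI against E2. Both comparisons use the E2 arrays, so that a chance deviation of these arrays enters both. The 4 probes that passed are also those on the lists of the study. It selected its genes on these same arrays for a change in E2 that was weaker in E2+ICI. The count of 4 thus describes these probes and is no test of a return towards control.

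**Figure D2:**
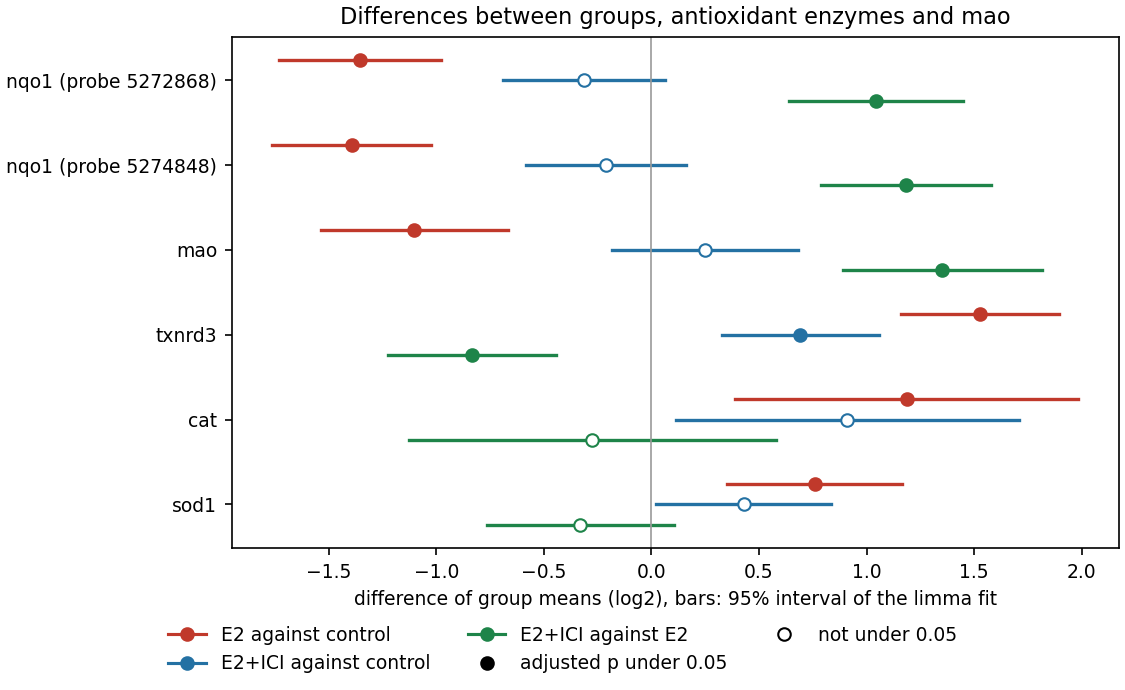
Differences of group means (horizontal axis, log2) for each probe in the 3 comparisons, with the 95% interval of the limma fit as a bar and a filled point where the adjusted p over all probes was under 0.05. The intervals for cat are the widest, and txnrd3 has the 1 filled point for E2+ICI against control.

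The share of the E2 change that was removed with ICI, taken as the E2 minus E2+ICI difference over the E2 minus control difference, describes the same values on a common scale. It was 1.23 ± 0.15 for mao (SD over the 3 E2+ICI fish, with group means of the others held fixed), 0.769 ± 0.265 and 0.848 ± 0.117 for the nqo1 probes, 0.547 ± 0.176 for txnrd3, 0.436 ± 0.0612 for sod1 and 0.232 ± 0.441 for cat. A share of 1 is a full return to the control mean. E2+ICI replicate 2 had the highest share of its group for mao (1.39), both nqo1 probes (1.08 and 0.976), txnrd3 (0.744) and cat (0.738), but not for sod1 (0.435). With quantile normalization the shares were 0.774 for mao, 1.15 and 1.2 for nqo1, 0.869 for txnrd3 and 0.977 for sod1. The order of these genes by this share thus changed with the scaling of the arrays. The share of cat ran from 0.165 to 0.386 over the processing alternatives and stayed below those of the other genes.

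The place of each probe within its own array does not depend on the spread of that array. The first nqo1 probe had a higher ratio than 95.7% to 98.5% of probes on the control arrays and 97.4% to 99.3% on those of E2+ICI fish, but than 28.3% to 50% on those of E2 fish. For mao these shares were 8.14% to 20.6% for the controls, 0.236% to 0.584% under E2 and 2.15% to 16.3% under E2+ICI, which puts its E2 values among the lowest ratios on those arrays. For txnrd3 they were 5.29% to 14.9% for the controls, 72.8% to 88.4% under E2 and 8.36% to 16.3% under E2+ICI, and for sod1 8.56% to 25.8%, 28.4% to 62.2% and 9.72% to 23.5%. By this measure the E2+ICI fish overlapped with control for all 4 of these probes, which for txnrd3 they did not on the log2 scale. For mao the overlap rested on E2+ICI replicate 2 (16.3%), since replicates 1 and 3 (2.15% and 2.5%) ranked below all controls. The second nqo1 probe ranked at 91.9% to 98% for the controls, 12.7% to 37% under E2 and 98.4% to 98.6% under E2+ICI. Its E2+ICI fish thus ranked above all controls, whereas on the log2 scale they overlapped with them. The cat probe ranged from 8.66% to 95.2% among E2 fish.

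**Figure D3:**
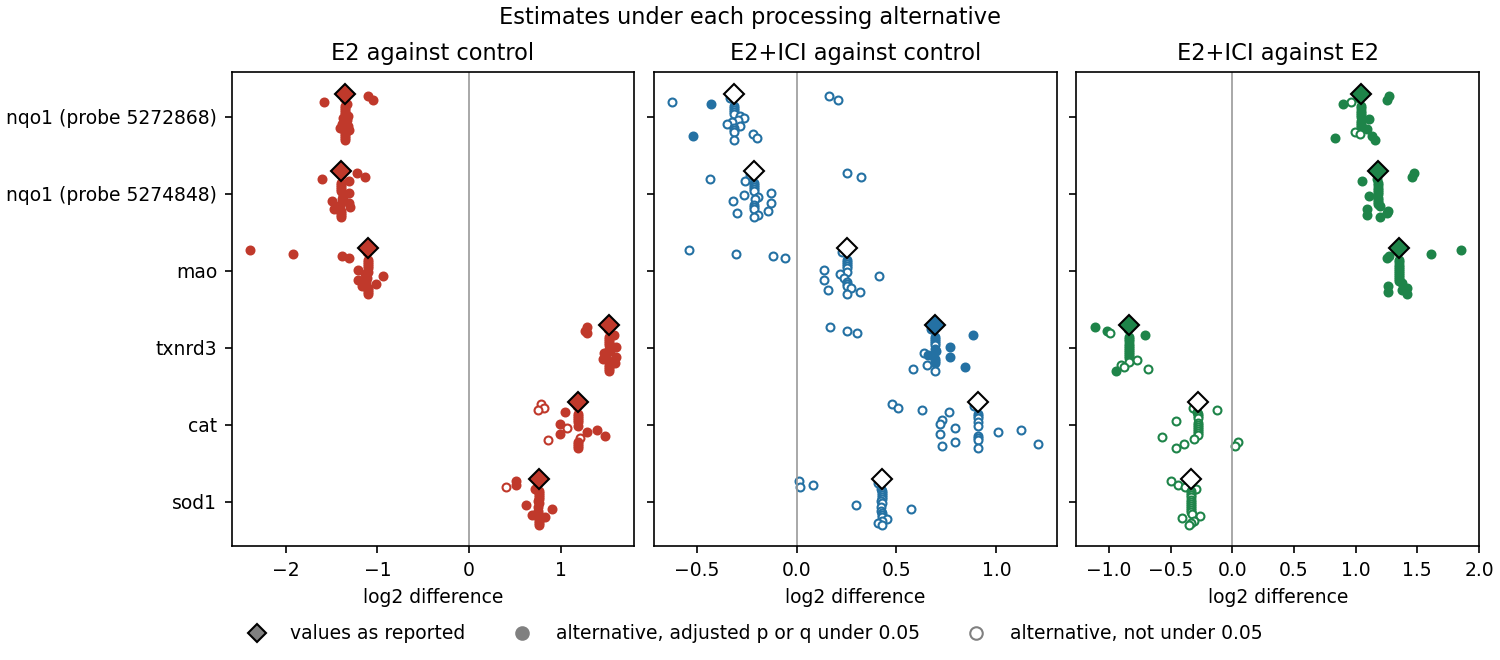
Estimates of each difference (horizontal axes, log2) in the values as reported (diamonds) and under each processing alternative or with 1 array left out (circles), filled where the adjusted p, or the q-value of SAM, was under 0.05. For E2 against control all points of a probe stay on 1 side of 0, whereas for E2+ICI against control those of both nqo1 probes and mao lie on both sides.

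Other genes of the same pathways were read from lists of redox and monoamine genes, which together hold 32 probes on the array, 26 of them outside the 5 genes. The lists were read by gene symbol, so that only part of each is measured and probes without a symbol are not counted. Of 21 genes for the removal of superoxide and peroxide, 3 have a probe, namely cat, sod1 and sod3b. The last makes an extracellular superoxide dismutase and differed by -0.28 between E2 and control fish (SE 0.18, adjusted p = 0.256). A probe without a symbol that the study assigns to the human homolog GPX4, a glutathione peroxidase, differed by -1.82 (SE 0.208, adjusted p = 6.69e-05 by limma). It was picked after its values had been seen. The median difference in E2 against control over all probes tested was -0.0728, against which the medians of the lists may be set.

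The thioredoxin and glutaredoxin list had 7 probes of 6 genes, of which 2 were higher and 3 lower in E2 fish, beside 19.2% and 16.5% of all probes tested, with a median of -0.17. Without txnrd3, 1 of 6 was higher and 3 were lower. Beside txnrd3, glrx5 rose by 0.75 (SE 0.16, 1.68-fold, adjusted p = 0.00387); its product is a mitochondrial glutaredoxin of iron-sulfur cluster assembly. The methionine sulfoxide reductase gene msrb3, which repairs oxidized methionine, fell by 0.80 (SE 0.196, adjusted p = 0.00809). The thioredoxin-like gene txnl1 fell by 0.71 (SE 0.193, adjusted p = 0.0145) and was 0.95 higher in E2+ICI than in E2 fish (SE 0.207, adjusted p = 0.0273). For msrb1a, another methionine sulfoxide reductase, 1 probe fell by 0.59 (SE 0.191, adjusted p = 0.0332), while the second gave -0.17 and did not pass. Against control, none of the 6 other probes of this list passed in E2+ICI fish by limma, the smallest adjusted p being 0.0545 for msrb3. At an unadjusted p under 0.05 by limma the list then had 2 higher probes, txnrd3 among them, and 1 lower. Of all 16208 probes tested 4245 were under that level in this comparison, and SAM called 0 probes of the list.

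Of these calls, those of glrx5, msrb3, txnl1 and msrb1a were lost to a 2-fold minimum, and those of glrx5 and msrb3 to no other alternative run. The fall of txnl1 did not pass with quantile normalization (-0.19, adjusted p = 0.565) or equal spread (-0.069, 0.831), nor without E2 replicate 2 (0.0524) or E2 replicate 3 (0.0503), and its rise with ICI did not pass on values before Lowess (0.0991) or without any 1 of the E2 or E2+ICI fish (0.0552 to 0.112). The msrb1a call was lost with its probes averaged (-0.38, adjusted p = 0.127), the replicate block (0.0532) and SAM (q = 0.0541), and without control replicate 3 (0.0781), E2 replicate 1 (0.0916) or E2 replicate 3 (0.129).

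None of the 6 probes for glutathione synthesis and transfer passed in any of the 3 comparisons (limma), and their median in E2 against control was -0.37. At an unadjusted p under 0.05 by limma, 1 was higher and 2 were lower in E2, beside 7305 of the 16208 probes tested. At that level 1 was lower in E2+ICI than in control fish, beside 4245 of all probes. SAM called 0 of the list in either comparison. The subunits of the enzyme that starts glutathione synthesis, gclm and gclc, gave 0.55 (SE 0.226, adjusted p = 0.0792) and 0.15 (SE 0.262, adjusted p = 0.7). The glutathione transferase genes gave -0.76 for mgst3b, -0.65 for gsto1, -0.58 for gstp1.2 and -0.17 for gstt1b, with adjusted p from 0.0715 to 0.508. Of the genes that control the Nrf2 response, those found by symbol were nfe2l1a, a relative of Nrf2, at 0.05 (SE 0.169, adjusted p = 0.852), and maff, a small Maf partner, at -0.34 (SE 0.226, adjusted p = 0.272). Neither passed in the other comparisons, and neither had an unadjusted p under 0.05 in any, with 0 called by SAM. A probe without a symbol that the study assigns to the human homolog NFE2L2, Nrf2 itself, fell by 1.23 in E2 (SE 0.21, adjusted p = 0.000995), and was picked after its values had been seen.

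Beside nqo1, the list drawn up for quinone, heme and iron genes of the Nrf2 response held cbr1l, a carbonyl reductase, at 0.27 (SE 0.145, adjusted p = 0.168), and fth1a, the ferritin heavy chain that stores iron, at 0.04 (SE 0.174, adjusted p = 0.879). It also held ucp2, a mitochondrial carrier, at -0.71 (SE 0.262, adjusted p = 0.0547). Whether Nrf2 controls these genes in zebrafish was not tested. None of these 3 passed in the other comparisons either. At an unadjusted p under 0.05 by limma the list held 0 probes for E2+ICI against control, as by SAM. Of all 16208 probes tested 4245 were under that level. For E2+ICI against E2 the list held 1 lower probe, and 3919 of all probes were under that level in either direction. Beside the fall of nqo1 and mao, 4 of the 6 liver probes fell in E2. Among them hpxb, whose product binds free heme, fell by 3.87 (SE 0.316, adjusted p = 5.88e-06), and cp gave -2.20 (SE 0.245, adjusted p = 5.56e-05). The liver fatty acid-binding protein gene fabp10a fell by 1.93 (SE 0.461, adjusted p = 0.00723), and tfa gave -1.23 (SE 0.231, adjusted p = 0.00176). The probes of apoa1b and cyp2ad2 gave -0.12 and -0.07 and did not pass. In E2+ICI fish 2 of the 6 were lower than in control by limma, beside 3.04% of all probes tested. Against E2 fish 3 were higher, beside 2.88%.

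Of 9 probes for the synthesis, transport and breakdown of monoamines, 5 were lower in E2 fish and 0 higher at an adjusted p under 0.05, beside 16.5% and 19.2% of all probes tested, with a median of -0.58. Without mao, 4 of 8 were lower. At an unadjusted p under 0.05 by limma, 1 was higher and 5 were lower, beside 7305 of the 16208 probes tested in either direction. SAM called the same numbers as limma did after adjustment. Beside mao, gch2, whose GTP cyclohydrolase makes the pterin cofactor of tyrosine hydroxylase and pigments, fell by 1.12 (SE 0.215, 2.18-fold, adjusted p = 0.00249). A later enzyme of that pathway, sepiapterin reductase from spra, fell by 0.58 (SE 0.15, adjusted p = 0.012). The gene th, for the tyrosine hydroxylase that starts dopamine synthesis, fell by 0.59 (SE 0.171, adjusted p = 0.02), and aanat2, an acetyltransferase of melatonin synthesis in the pineal gland, fell by 0.71 (SE 0.157, adjusted p = 0.0047). The synthesis genes dbh and tph1b, the second acetyltransferase gene aanat1 and the dopamine transporter gene slc6a3 gave 0.20, -0.33, -0.20 and 0.47, with adjusted p from 0.0625 to 0.4.

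With ICI added, th was 0.72 higher than in E2 fish (SE 0.183, adjusted p = 0.0453), as mao was. The estimates of gch2, aanat2 and spra were also higher, by 0.32, 0.40 and 0.34, but did not pass (adjusted p from 0.171 to 0.497 by limma). For gch2 and spra only 2 E2+ICI fish had a value. The E2 and E2+ICI fish did not overlap for these genes, as was so for 42.5% of all probes. The transporter gene slc6a3 was 0.62 higher in E2+ICI than in control fish (SE 0.155, adjusted p = 0.0281). Against E2 fish, of which only 2 had a value, slc6a3 differed by 0.15 (adjusted p = 0.674 by limma). The call of th against control was lost without E2 replicate 2 (adjusted p = 0.0827) or 3 (0.0583), and its rise with ICI on values before Lowess (0.244) and without control replicate 1 or 2 or any 1 of the treated fish (0.0529 to 0.166). That of spra was lost before Lowess (0.0804) and without E2 replicate 1 (0.0588), and its size was -0.966 with quantile normalization and -0.883 with equal spread. That of slc6a3 was lost in the fit of these groups alone (adjusted p = 0.0605), with the replicate block (0.0733) or SAM (q = 0.0679), and without control replicate 3 (0.063) or any 1 of the E2+ICI fish (0.0598 to 0.133). The calls of gch2 and aanat2 in E2 against control passed in each alternative that held them, apart from the 2-fold minimum for aanat2. That minimum also removed both calls of th and those of spra and slc6a3.

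Neuron markers gave 1 of 10 probes higher and 0 lower in E2, beside 19.2% and 16.5% of all probes tested. Their list mean was -0.548 to 0.0559 for the controls, -0.084 to -0.0483 under E2 and -0.38 to -0.0746 under E2+ICI, so that the E2 fish lay within the range of the controls. The median difference of the 10 probes in E2 against control was -0.237, beside -0.0728 over all probes tested. At an unadjusted p under 0.05 by limma, 1 probe was higher and 1 lower in E2, beside 7305 of the 16208 probes tested in either direction.

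**Figure D4:**
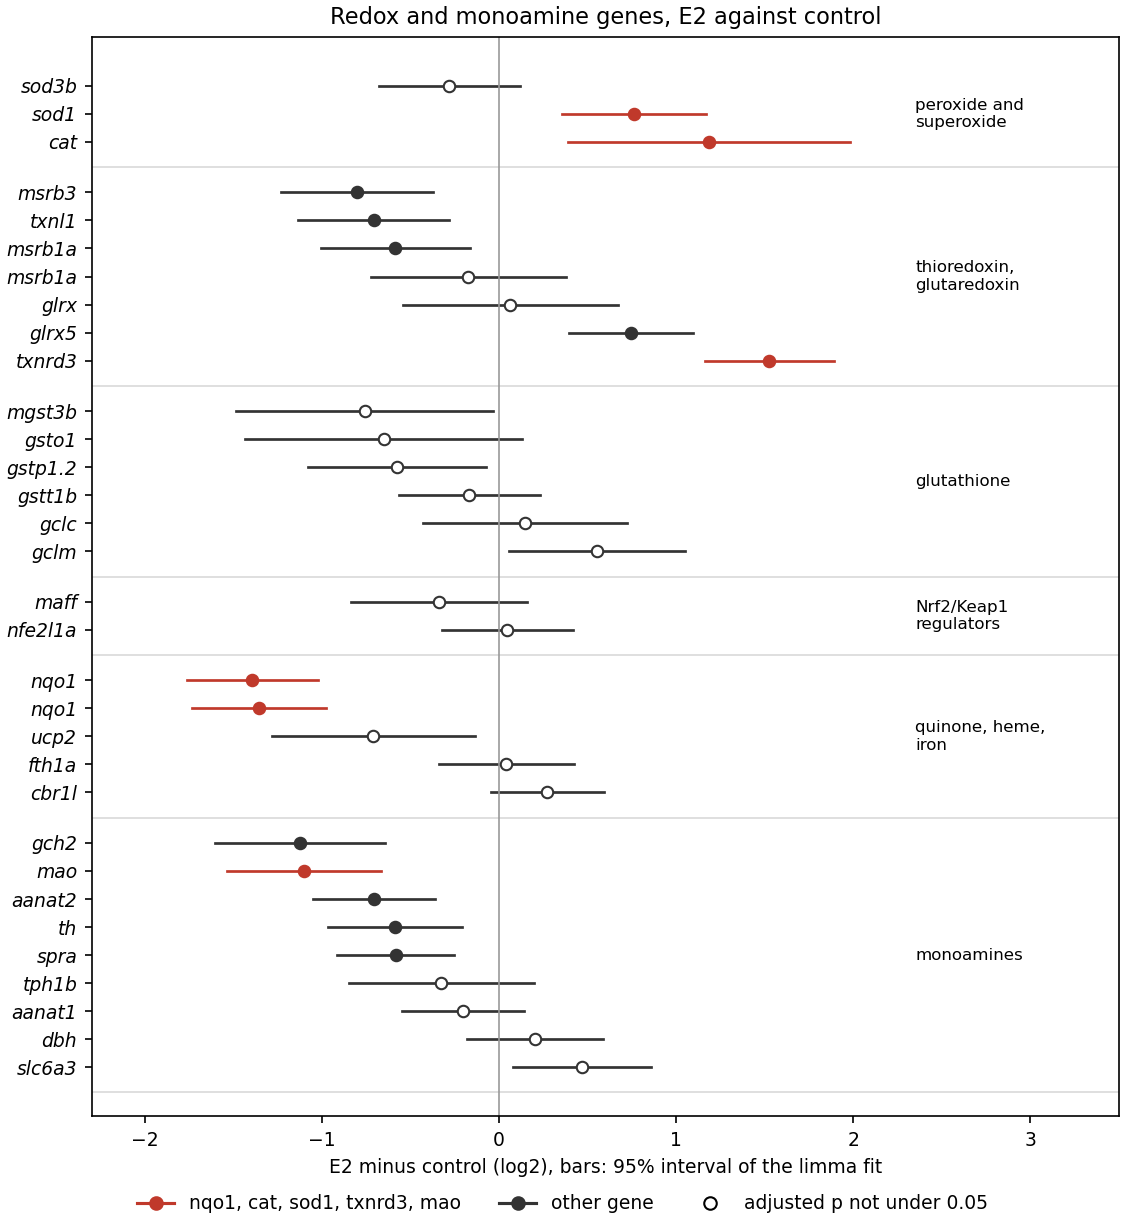
Difference between E2 and control (horizontal axis, log2) for all 32 probes of the 6 pathway lists, with the 95% interval of the limma fit as a bar, red for nqo1, mao, txnrd3, cat and sod1 and dark for other genes, and open where the adjusted p was not under 0.05. The monoamine probes that pass are all lower in E2, while the thioredoxin list has probes on both sides.

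For each probe, those 2 other probes with the most similar profile were taken from the 5284 probes with 1 gene symbol and a value on all 10 arrays, by the root mean square difference of values from which the control mean of the probe had been subtracted. The first nqo1 probe was nearest to slc37a4a, a glucose 6-phosphate transporter (0.145), and s100u, a calcium-binding protein of the S100 family (0.146), and the other nqo1 probe came at rank 4 (0.156). The second was nearest to pttg1ipa (0.0989) and to slc43a2a, an amino acid transporter (0.117), with the other nqo1 probe at rank 7. The mao probe had no profile as near, the closest being zgc:66473 (0.174) and fxyd3, a regulator of the sodium pump (0.232).

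The profile of txnrd3 was nearest to ssbp3b (0.138) and stk17al (0.139), which rose from means of -1.18 and -1.52 in control to 0.20 and 0.08 in E2 fish and stood at -0.46 and -0.67 in E2+ICI fish. That of sod1 was nearest to cwc22, a splicing factor (0.119), and rpap2 (0.138), and that of cat to pds5b, a cohesin regulator (0.279), and igf2bp3, an RNA-binding protein (0.299). All these distances are over the same 10 arrays, so that any deviation of an array is shared by the probes compared.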

How the data were processed

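Gene expression was measured in 10 whole fish (4 control, 3 E2, 3 E2+ICI), grouped by the sample labels. The deposited values are log2 ratios, which the authors made from GenePix net intensities after subtraction of the local background and normalized by Lowess within each array. Arrays were selected by the authors on scatter plots. The log2 ratios before Lowess, for the same spots, form another deposited table. Software versions are not given in the sources used here. Without spot intensities, the number of arrays limits the precision.

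Of 16416 probes, 6088 carry 1 gene symbol, 75 several and 10253 none, and 6019 match a gene of the RefSeq table. A single linear model of the 10 arrays was made with limma 3.58.1 (R 4.3.3, prior degrees of freedom 4.18) for 16208 probes, leaving out those with over 6 missing values or under 2 values in a group. All p-values are two-sided and were adjusted over these probes by the Benjamini-Hochberg method, with 0.05 as the threshold. A fold is 2 to the power of the log2 difference. For the comparisons with control SAM was programmed again (Python 3.11.15, numpy 2.4.6, pandas 2.3.3) and used 35 permutations. Figures were drawn with matplotlib 3.10.9. Simulated data with added changes served to test limma and SAM before use.

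The 5 genes, the pathway lists and the marker lists were chosen with earlier results of these data known. The text names every probe of the 5 genes, from each list up to 4 probes that passed in any comparison, all probes of the Nrf2 regulators, other list genes where a statement needs them, and the 2 probes of most similar profile. As alternatives the arrays were quantile normalized, centred on their medians, scaled to equal spread, weighted, or read before Lowess; missing values were not filtered or not allowed, and repeated values were dropped; probes were averaged by gene; the fit had a robust prior, a replicate block, the compared groups alone or 1 array less; and SAM or a 2-fold minimum was applied. A search for promoter motifs was planned and not run.

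Whether fish of 1 group shared a tank is not given in the sources used here, so p-values measure the spread between these fish.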

Additional observations from a re-analysis of the deposited data

How the results depend on the processing

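Both nqo1 probes, txnrd3 and mao kept their direction and passed for E2 against control under every alternative and with each array left out, and so did mao and nqo1 probe 5274848 for E2+ICI against E2. Same-numbered fish of different groups correlated with r = -0.232 to 0.172 in their deviations from the group means, so the numbers were not taken as pairs. No call of the 6 probes was changed by the replicate block. Control replicate 4 has no partner and so does not count in that fit, which called 2090 probes for E2+ICI against E2, beside 879 with all arrays and 2696 without that array and without the block. SAM was not run for E2+ICI against E2. The cause of the changes below was not tested, apart from the 2-fold minimum, which by construction removes calls of smaller differences.

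For E2 against control, cat did not pass with quantile normalization (0.78), equal spread (0.82) or values before Lowess (0.75), and sod1 did not pass before Lowess (0.40) or, at 0.76, with the 2-fold minimum, which left 2438 probes in all and 6 of the pathway lists. With each array left out cat ranged from 0.86 to 1.48, sod1 from 0.63 to 0.90, nqo1 from -1.41 to -1.31 and -1.50 to -1.30, txnrd3 from 1.46 to 1.61 and mao from -1.22 to -0.94, and counts from 4237 to 7135 probes and 10 to 19 pathway probes.

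For E2+ICI against control, quantile normalization and equal spread turned nqo1 probe 5272868 to 0.16 and 0.21, probe 5274848 to 0.25 and 0.32, and mao to -0.54 and -0.31; values before Lowess and array weights turned mao to -0.12 and -0.059. Array weights gave -0.43 for nqo1 probe 5272868, which then passed. The sod1 difference ran from 0.0117 to 0.43 over the processing alternatives and passed in none. The txnrd3 difference did not pass at 0.17, 0.25 and 0.30 (quantile, equal spread, before Lowess) or at 0.69 in the fit of these groups alone, SAM and the 2-fold minimum. Beside 1939, the count was 1027, 1053, 4097, 1213, 1130 and 892 (quantile, equal spread, weights, groups alone, SAM, 2-fold), and of 2 pathway probes 8 passed with weights, 1 with complete probes only and 0 with groups alone, SAM or 2-fold. The split of 1446 higher and 493 lower (74.6% higher) became 550 and 477 (53.6%) with quantile normalization, 64.3% higher with weights and 86.9% with the 2-fold minimum. Without single arrays nqo1 ranged from -0.52 to -0.20 and -0.32 to -0.13, txnrd3 from 0.58 to 0.84, cat from 0.72 to 1.21, sod1 from 0.30 to 0.57, mao from 0.14 to 0.41, counts from 897 (without E2+ICI replicate 3) to 2444, and pathway probes from 0 to 5.

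For E2+ICI against E2, values before Lowess gave 0.965 for nqo1 probe 5272868 and -0.99 for txnrd3, neither passing, and txnrd3 at -0.84 missed the 2-fold minimum. The count of 879 became 3937, 3849, 386, 4510, 3314 and 408 (quantile, equal spread, before Lowess, weights, groups alone, 2-fold), and 6 pathway probes became 2 before Lowess, 12 with weights and 3 with 2-fold. Before Lowess 37.6% of the calls were higher, against 53.1%. Without single arrays nqo1 ranged from 0.84 to 1.16 and 1.09 to 1.26, txnrd3 from -0.95 to -0.69, mao from 1.26 to 1.42, sod1 from -0.40 to -0.26 and counts from 162 (without E2+ICI replicate 2) to 2696 (without control replicate 4), with 2 to 6 pathway probes; cat ranged from -0.57 to 0.05004, reversing without E2 replicate 3 (0.05004) and E2+ICI replicate 2 (0.024).

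The share of the E2 change removed moved, for quantile, equal spread and before Lowess, to 0.977, 0.843 and 0.953 for sod1, 0.869, 0.802 and 0.767 for txnrd3 and 0.774, 0.841 and 0.915 (0.955 with weights) for mao, to 1.15 and 1.2 for nqo1 probe 5272868 and to 1.2, 1.28 and 0.731 for probe 5274848. Without single arrays it ranged from 0.366 to 0.528 for sod1, 0.616 to 0.854 and 0.784 to 0.904 for nqo1, 0.449 to 0.619 for txnrd3, 1.11 to 1.44 for mao and -0.0582 to 0.386 for cat.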

Other observations

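Nrf2 itself, the transcription factor that drives nqo1 in mammals, and glutathione peroxidase 4, which reduces lipid peroxides, carry no zebrafish symbol on this array. Probes for both could be named only by the human homolog that the study assigns to their GenBank accession, among genes it selected on these arrays, and they were picked here after their values had been seen. The NFE2L2 homolog probe (5275119) gave control values of 0.37, 0.36, -0.07 and 0.16, E2 values of -0.63, -1.43 and -0.998, and E2+ICI values of -0.17, 0.35 and 0.07. Every E2 fish was below every other fish, and the E2+ICI fish overlapped with control. It fell by 1.23 in E2 (SE 0.21, adjusted p = 0.000995 by limma), was 1.1 higher in E2+ICI than in E2 fish (SE 0.224, adjusted p = 0.0213, not passing before Lowess or without E2 replicate 2 or 3 or E2+ICI replicate 2 or 3, at 0.0501 to 0.101) and differed from control by -0.12 in E2+ICI fish (SE 0.21, adjusted p = 0.759).

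The GPX4 homolog probe (5275663) gave control values of 1.08, 0.52, 0.35 and 1.25, E2 values of -1.0, -0.98 and -1.06, and E2+ICI values of -0.48, -0.45 and -0.48, so that the 3 groups did not overlap. It fell by 1.82 in E2 (SE 0.208, adjusted p = 6.69e-05), by 1.27 in E2+ICI relative to control (SE 0.208, adjusted p = 0.00233) and did not pass for E2+ICI against E2, with 0.55 (SE 0.223, adjusted p = 0.162). Both homolog probes were lower in E2 fish, as were nqo1 and mao, while cat, sod1 and txnrd3 were higher. As both homologs were taken from genes that the study selected on these arrays, their change adds no separate evidence.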
